A study of Enallax costatus with 10 samples.

Results

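The genes described here are 53 assembly genes of the desert green alga Enallax costatus whose mean expression stayed within a 2-fold range over 5 stages of drying and rewetting. Members were chosen from the deposited TMM-scaled expression values: the highest of the 5 stage means had to be under 2 times the lowest, and the gene needed 30 or more counts in each of the 10 libraries. Of 32478 assembly genes, 729 (2.24%) reached 30 counts in every library, and 53 of those 729 (7.27%) were members; the other 676 genes past this floor serve as the comparison below. These values chose the members, so their steadiness across stage means is a description and was not tested. The deposited tables identify genes by assembly identifiers without names, so no function is given to any member.

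All libraries came from strain CCAP 276-31 of this alga, cultured for 6 weeks in liquid medium and spotted onto glass in volumes of 40 µL. The Hydrated stage was sampled at once (0 h). Early desiccation was sampled at 2.5 h, when 25% of the volume was lost, and Late desiccation at 7.5 h, when 60% was lost. The Dry stage was sampled at about 24 h, after 11 h as a fully flat spot, and the Rehydrated stage 1 h after water was returned. Each stage had 2 libraries, called 1 and 2 after the numbers in their titles, and nothing in the labels says that they came from separate cultures, so the spread between them may be technical.

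Desiccation-tolerant green algae lose nearly all cell water, halt metabolism while dry and resume it when wetted. A transcript can keep its relative level through such a course because synthesis and decay stay balanced, or because both stop in the dried cell and the messenger is stored. Sequencing of bulk RNA gives each transcript's level relative to the other transcripts of the library, so fewer cells and less RNA per cell cannot be told apart, and an even relative level does not give the amount per cell. Genes with even relative levels are commonly sought as internal references for targeted measurements of other genes.

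Libraries held between about 1974810 and 3867190 expected counts. Rehydrated library 2 stood apart: 1076 genes reached 30 counts in it, against 4018 to 9609 in the other 9 libraries, and its 100 most abundant genes held 85.2% of its counts, against 40.4% to 64.8% elsewhere. Without it, 2568 genes reached the count floor, and leaving out any other library gave between 729 and 758. Of the 1839 genes that missed the floor in this library alone, 211 (11.5%) had stage means within the 2-fold range.

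By stage means, the members lay close together across the course, as the rule required. The ratio of the highest to the lowest stage mean ran from 1.12 to 1.99 among members with a median of 1.69, against a median of 8.59 among the other 676 genes. The median stage mean over the 53 members was 9.93 in Hydrated, 9.76 at Early desiccation, 8.44 at Late desiccation, 9.74 in Dry and 9.40 in Rehydrated, in units of the deposited TMM-scaled values. Members averaged between 2.197 and 138 on this scale, and none was among the 100 genes with the highest Hydrated value. Among the 1000 genes with the highest Hydrated value, 7 were members, and among the 1000 with the most Hydrated counts, 26 were. By deposited value, the median member stood at percentile 89.9 to 94.9 of all assembly genes, depending on the library. The count floor itself favours genes of high rank, so this percentile cannot be read as a trait of the members. Among genes past the floor the members were low: their mean value over stages had a median of 9.20, against 49.6 for the other 676 genes. The floor had to be met in every library, so a gene that differs more between stages needs a higher mean to pass it. This contrast therefore cannot be read as a trait of the members apart from the rule and the floor.

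Within the permitted range, the members did not share a single shape. The highest stage mean fell in Hydrated for 14 members, at Early desiccation for 11, at Late desiccation for 2, in Dry for 12 and in Rehydrated for 14. The lowest fell in Hydrated for 5, at Early desiccation for 7, at Late desiccation for 14, in Dry for 16 and in Rehydrated for 11. The most frequent combinations were Hydrated highest with Rehydrated lowest, Early desiccation highest with Dry lowest, and Dry highest with Late desiccation lowest, each in 6 members. Among the other 676 genes the highest stage mean was in Dry for 360 and in Rehydrated for 190.

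The limit of 2 cut through a continuous range. TRINITY_DN217272_c8_g1, nearest inside at a ratio of 1.99, had stage means of 2.66 in Hydrated, 2.44 at Early desiccation, 3.05 at Late desiccation, 4.22 in Dry and 4.85 in Rehydrated. TRINITY_DN217617_c2_g3, nearest outside at 2.01, had 6.45 in Hydrated, 7.998 at Early desiccation, 10.4 at Late desiccation, 13.0 in Dry and 6.72 in Rehydrated. The Dry libraries of the member, at 5.64 and 2.81, differed 2.01-fold, about as much as the stage means that decided membership.

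Single libraries went against the label of steadiness for most members. Over all 10 libraries, the highest value was a median of 3.02 times the lowest among members, with a range of 1.15 to 9.57, against a median of 15.4 among the other 676 genes. Only 5 of the 53 members (9.43%) kept all 10 libraries within 2-fold, 25 (47.2%) kept them within 3-fold and 42 (79.2%) within 5-fold. Of the other 676 genes, 0 did so within 2-fold, 13 (1.92%) within 3-fold and 94 (13.9%) within 5-fold. The rule bounds the stage means of members only, so contrasts with the other genes cannot be read apart from it. In the 8 libraries before rewetting, the median ratio was 2.06 and 23 members (43.4%) stayed within 2-fold, against 6.26 and 12 (1.78%) of the others. Leaving out Rehydrated library 2 alone gave a median of 2.24 with 12 members (22.6%) within 2-fold, against 9.18 and 2 (0.296%) of the others. The members are therefore described below as genes with even stage means, not as genes with even levels in every sample.

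**Figure D1:**
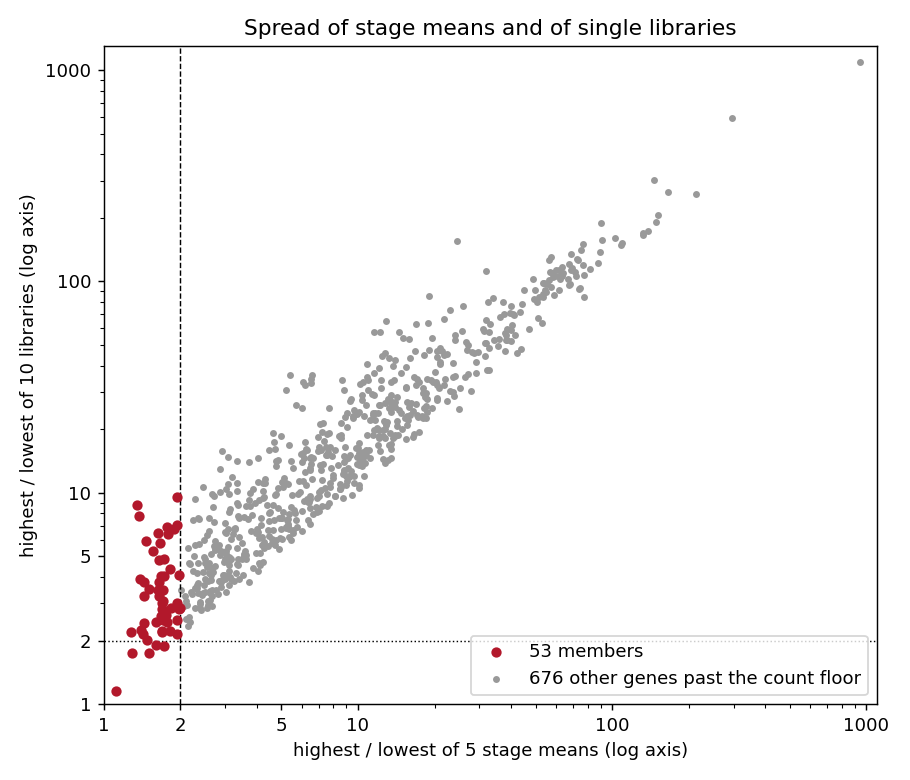
Each point is a gene with 30 or more counts in all libraries, placed by the ratio of its highest to lowest stage mean (horizontal, log axis) and of its highest to lowest single library (vertical, log axis); red points are the 53 members, grey points the other 676 genes, and lines mark ratios of 2. All but 5 members lie above the horizontal line, up to a ratio of 9.57 between libraries.

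The libraries of a stage were furthest apart after rewetting. The higher of the libraries of a stage was a median of 1.23 times the lower among members in Hydrated, 1.16 at Early desiccation, 1.17 at Late desiccation and 1.22 in Dry, but 2.47 in Rehydrated. The number of members whose pair lay within 2-fold was 52 in Hydrated, 52 at Early desiccation, 51 at Late desiccation, 52 in Dry and 19 in Rehydrated. The rule did not use differences within a stage other than through the count floor. The wider Rehydrated pair was not particular to the members: the median over the other 676 genes was 2.66 there, against 1.42 in Hydrated, 1.34 at Early desiccation, 1.29 at Late desiccation and 1.19 in Dry.

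**Figure D2:**
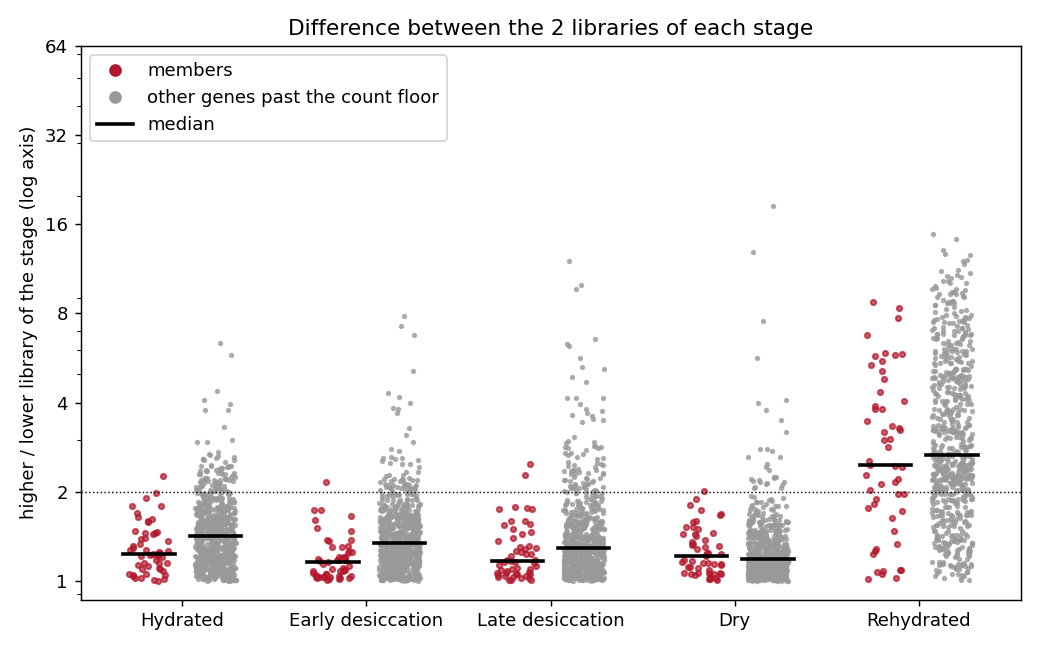
Ratio of the higher to the lower library of each stage (log axis) for the 53 members (red, left) and the other 676 genes past the count floor (grey, right), with black bars at the medians and a dotted line at 2. In Rehydrated the medians are 2.47 for members and 2.66 for the others, and at the other stages both lie under 1.5.

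Rehydrated library 1 was usually the high one. It was above library 2 in 43 of 53 members, with a median ratio of 2.47, and in 450 of the other 676 genes, with a median of 2.46. In 12 members library 1 was above, and library 2 below, all 8 libraries taken before rewetting, as it was in 10 of the other 676 genes. In 9 of these 12 the Rehydrated mean lay inside the range of the 4 earlier stage means, and in 3 it lay above. Rehydrated library 2 was the lowest of the 10 in 28 members (52.8%) and in 258 of the others (38.2%). Library 1 was the highest in 22 members (41.5%) and in 53 of the others (7.84%). The rule keeps the stage means of members close, so the widest pair readily holds their extremes, and it bounds where their Rehydrated mean can lie. The other genes differ more between stages by the same rule. These contrasts therefore cannot be read as a trait of the members apart from the rule.

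Members were also grouped by the size of this difference, as a description. In 14 members the Rehydrated libraries were 4 times or more apart, with library 1 higher in all 14, and their mean values had a median of 14.9. In 20 members they were 2 to under 4 times apart, with a median value of 9.94. In 19 they were under 2 times apart, with a median value of 5.04 and library 1 higher in 11. The median count in Rehydrated library 2 was 38, 40.5 and 40 in these groups in the same order, and 318.5, 196.5 and 81 in library 1. The floor of 30 counts bounds the lowest value a member could have in library 2. Members of low value thus had little room for a wide pair with library 1 high. The mean values also include Rehydrated library 1, so the order of the groups cannot be read apart from the floor and the grouping. Before rewetting, the median ratio over 8 libraries was similar in the 3 groups, at 2.12, 2.02 and 2.06.

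**Figure D3:**
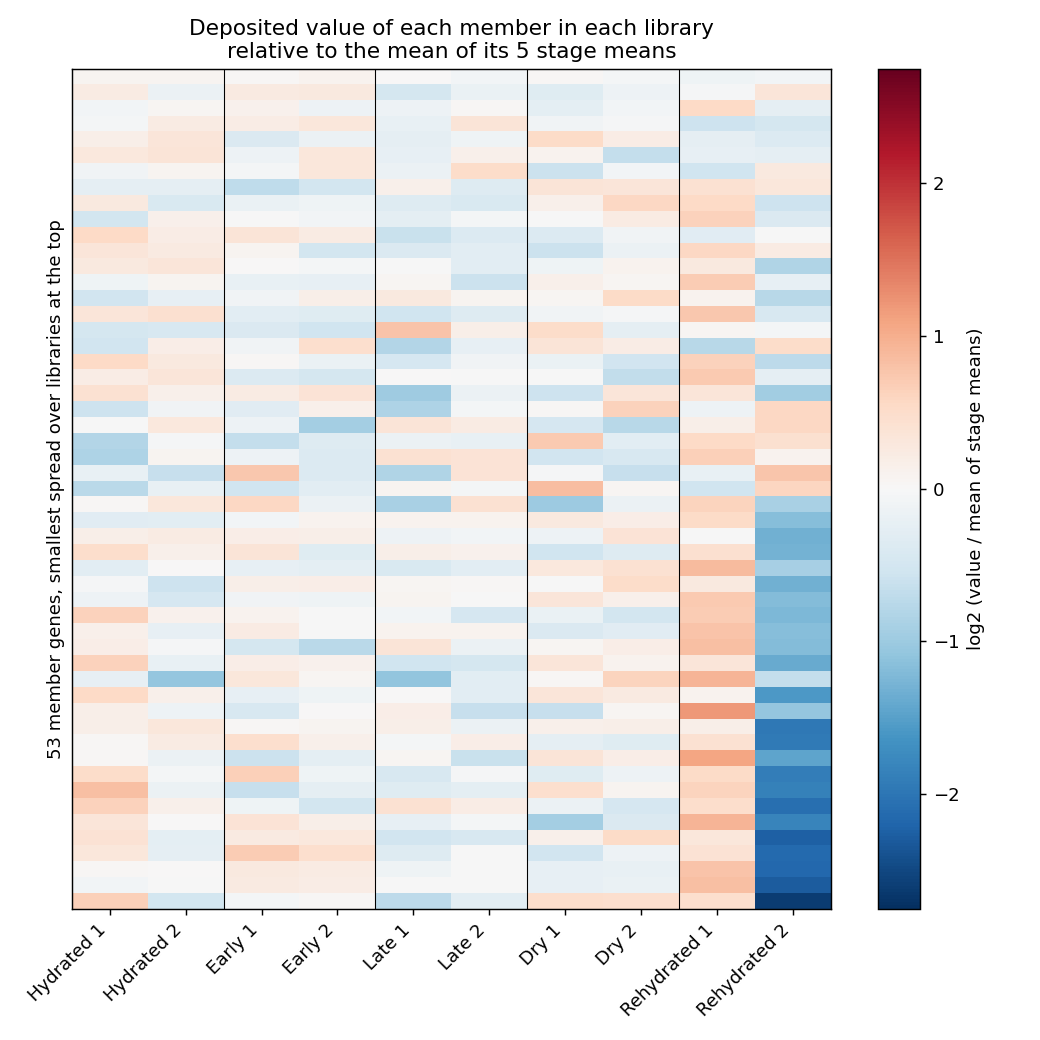
Colour gives log2 of each member's deposited value over the mean of its 5 stage means, with the 10 libraries in columns by stage and the 53 members in rows, those with the smallest spread over libraries at the top. The Rehydrated 2 column is blue for most rows of the lower part, where the Rehydrated 1 column is red.

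The most even member was TRINITY_DN217586_c2_g2, with both the lowest ratio of stage means and the lowest ratio of libraries. Its deposited values were 4.65 and 4.64 in Hydrated, 4.54 and 4.74 at Early desiccation, 4.45 and 4.22 at Late desiccation, 4.50 and 4.24 in Dry, and 4.11 and 4.20 in Rehydrated (libraries 1 and 2). No library was more than 1.15 times another, and stage means ran from 4.16 in Rehydrated to 4.65 in Hydrated. Its counts were 146 and 111 in Hydrated, 131 and 133 at Early desiccation, 76 and 93 at Late desiccation, 46 and 54 in Dry, and 34 and 33 in Rehydrated. Counting error is wider than the observed spread: 33 counts have an exact Poisson 95% interval of 22.7 to 46.3, which covers counting error only.

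The evenness of this gene held on the deposited scale and less so on others. As CPM, counts scaled by library size, with TMM library sizes from edgeR, its libraries spanned 2.29-fold and its stage means 1.497-fold, and on total-count CPM they spanned 2.78-fold and 2.43-fold. The deposited values also carry a gene length that is estimated in each library. Relative to the median of the 729 genes, that length for TRINITY_DN217586_c2_g2 ran from 0.808 in Rehydrated library 1 to 1.18 in Rehydrated library 2, a 1.46-fold range.

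The other 4 members within 2-fold in every library were picked out after their values were seen, except TRINITY_DN199184_c0_g2, which the naming rule chose. That gene had 7.91 and 6.02 in Hydrated, 8.06 and 8.21 at Early desiccation, 4.86 and 5.98 at Late desiccation, 5.37 and 6.13 in Dry, and 6.63 and 8.51 in Rehydrated, a 1.75-fold range. Late desiccation and Dry lay low, and Early desiccation and Rehydrated library 2 lay high. TRINITY_DN212843_c3_g1 also spanned 1.75-fold, from 4.63 in Dry library 1 to 8.11 in Rehydrated library 1, with its other 8 libraries between 4.70 and 6.05. TRINITY_DN221489_c11_g4 spanned 1.88-fold, with both Rehydrated libraries, at 9.21 and 9.74, below the other 8. TRINITY_DN214512_c3_g2 spanned 1.90-fold, from 12.4 in library 1 of Early desiccation to 23.6 in Dry library 1. On total-count CPM, all 5 genes spanned more than 2-fold over libraries, from 2.78-fold to 4.69-fold. On edgeR TMM CPM, TRINITY_DN221489_c11_g4 spanned 1.75-fold, and the rest of the 5 genes spanned from 2.17-fold to 2.996-fold.

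TRINITY_DN195392_c1_g3 had the second lowest ratio of stage means, at 1.28, and a 2.204-fold range over libraries. Its values were 6.34 and 10.05 in Hydrated, 8.995 and 8.55 at Early desiccation, 7.54 and 8.74 at Late desiccation, 8.975 and 10.5 in Dry, and 13.97 and 6.89 in Rehydrated. The highest of the 10 libraries was Rehydrated library 1 and the lowest Hydrated library 1, while the stage means were 10.4 in Rehydrated and 8.19 in Hydrated. On other scales its stage means were less even. Their ratio was 1.987 on edgeR TMM CPM, 2.05 with DESeq2 size factors and 2.296 on total-count CPM. Its relative length estimate differed 1.79-fold between libraries. For Dry against Hydrated its log2 fold change was 1.04 by DESeq2 (adjusted p = 0.019) and 0.99 by edgeR (adjusted p = 0.182).

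The most abundant members had even stage means but wide pairs. TRINITY_DN219768_c6_g12, the highest at a mean of 138, had 218 and 96.7 in Hydrated, 133 and 141 at Early desiccation, 83.6 and 114 at Late desiccation, 193 and 191 in Dry, and 189 and 22.8 in Rehydrated. Its stage means spanned 1.95-fold, and its libraries 9.57-fold because of Rehydrated library 2, where it had 107 counts against 883 in library 1. With Rehydrated library 1 left out its stage ratio was 8.44. TRINITY_DN321965_c0_g1 had 66.5 and 45.6 in Hydrated, 74.7 and 43.1 at Early desiccation, 34.7 and 45.7 at Late desiccation, 37.4 and 42.8 in Dry, and 67.6 and 12.6 in Rehydrated. Its stage ratio of 1.47 became 4.66 without Rehydrated library 1.

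TRINITY_DN164493_c0_g1, also among the highest, went the other way after rewetting. It had 53.7 and 88.5 in Hydrated, 72.2 and 106 at Early desiccation, 44.1 and 66.0 at Late desiccation, 99.1 and 89.1 in Dry, and 45.5 and 111 in Rehydrated. Library 2 was above library 1 at every stage but Dry. Its length estimate was the shortest among members, at 0.0756 of the median of the 729 genes, so its high per-length value rested on 35.7 to 233 counts.

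TRINITY_DN222672_c20_g1 had the widest pair of any member. Its values were 42.8 and 44.7 in Hydrated, 53.2 and 52.1 at Early desiccation, 44.95 and 44.7 at Late desiccation, and 38.5 and 39.4 in Dry, so the 8 libraries before rewetting were close within and between stages. In Rehydrated it had 80.3 and 9.19, an 8.74-fold difference on 395 and 30 counts, with a mean of 44.8 that matched Late desiccation. TRINITY_DN222672_c12_g1, a member from the same read cluster of the assembly, had 65.4 and 8.46 in Rehydrated and kept a ratio of 0.769 to 0.920 to it in every library. The assembler grouped these genes, and no sequence was used here to tell whether they overlap; neither had a count that was not whole. TRINITY_DN215202_c4_g3 and TRINITY_DN215202_c5_g3 were the only other members from a common cluster, with a ratio of 0.342 to 0.757.

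**Figure D4:**
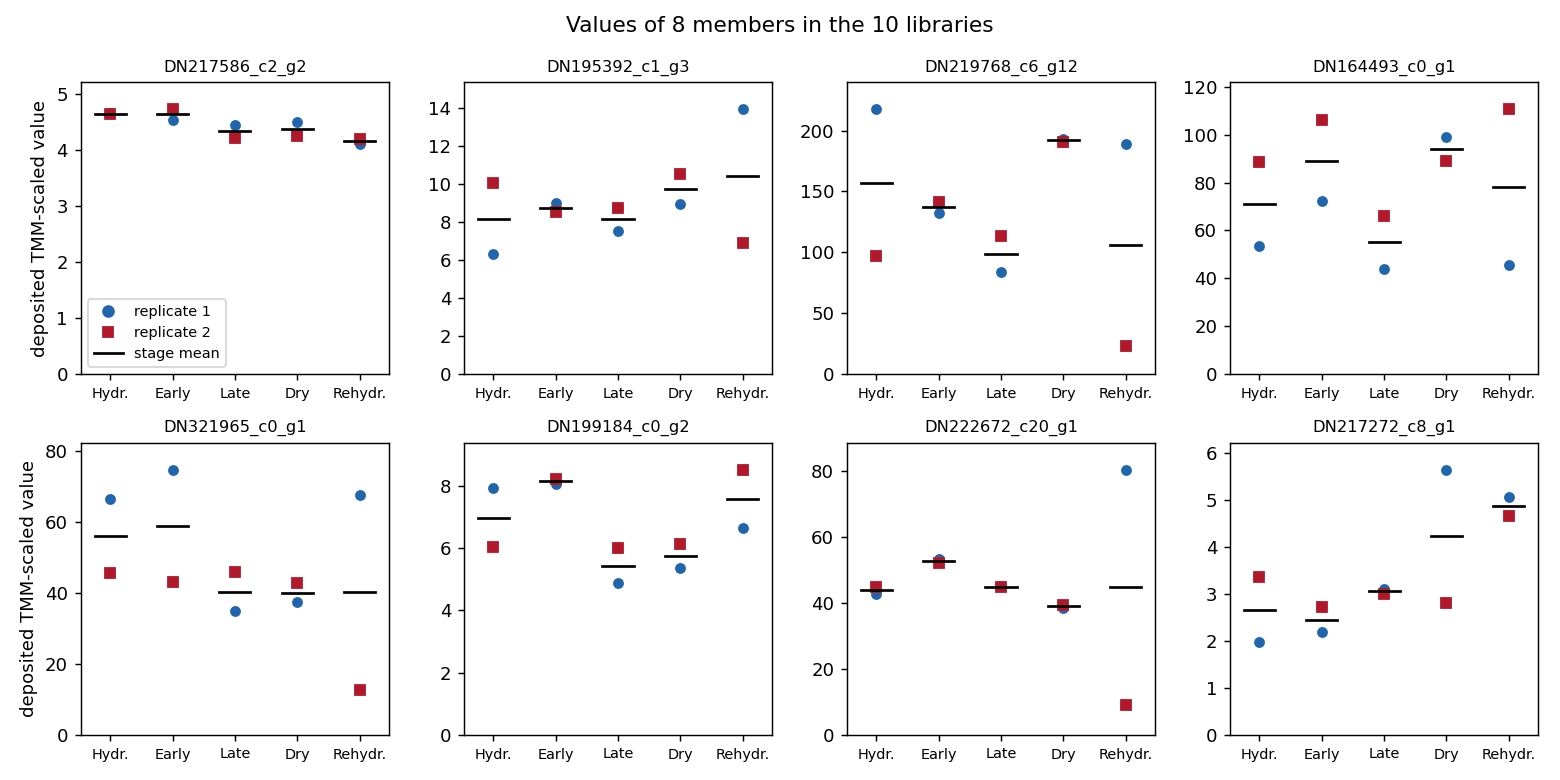
Deposited TMM-scaled values (vertical axes from 0, own scale per panel) of 8 members chosen by the naming rule in each stage, with circles for library 1, squares for library 2 and bars at stage means. The bars stay within 2-fold in every panel, while the Rehydrated points of TRINITY_DN222672_c20_g1 lie at 80.3 and 9.19.

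Counts behind these values were lowest in Rehydrated library 2. The members' median count was 404 and 306 in Hydrated, 424 and 371 at Early desiccation, 217 and 236 at Late desiccation, 138 and 194 in Dry, and 184 and 40 in Rehydrated. In Rehydrated library 2, 50 of 53 members had under 100 counts and 41 had under 60. The 3 members with 100 or more counts in all libraries were TRINITY_DN219768_c6_g12, TRINITY_DN221430_c1_g2 and TRINITY_DN222280_c35_g16. TRINITY_DN222280_c35_g16 had 28.7 in Rehydrated library 2 on 296 counts, inside the range of 14.9 to 36.1 of the 8 libraries before rewetting, and 42.5 in Rehydrated library 1.

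As a share of all counts, the members were not even. They held 0.830% ± 0.0319 of counts in Hydrated, 0.803% ± 0.0851 at Early desiccation, 0.581% ± 0.0825 at Late desiccation and 0.360% ± 0.0160 in Dry (SD, n = 2 each). The Rehydrated libraries held 0.610% and 0.139%. Hydrated and Dry libraries did not overlap, with 0.372% and 0.349% in Dry against 0.852% and 0.807% in Hydrated. The 100 most abundant genes held 54.1% and 55.8% of counts in Dry, against 40.4% and 42.6% in Hydrated. Of the counts outside those 100 genes, members held 0.800% ± 0.0141 in Dry and 1.42% ± 0.0171 in Hydrated.

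How many members were even depended on the scaling. On total-count CPM, 8 of the 53 members kept their stage means within 2-fold, against 38 on edgeR TMM CPM and 31 with DESeq2 size factors. The members' median level relative to their own mean over stages was 1.403 in Hydrated, 1.32 at Early desiccation, 1.004 at Late desiccation, 0.552 in Dry and 0.627 in Rehydrated on total-count CPM. On edgeR TMM CPM it was 0.903 in Hydrated, 0.945 at Early desiccation, 0.931 at Late desiccation, 1.01 in Dry and 1.12 in Rehydrated. The Rehydrated pair differed under each scaling: library 1 over library 2 was a median of 1.66 on edgeR TMM CPM, 1.48 with DESeq2 size factors and 4.01 on total-count CPM. The other 676 genes had medians of 1.59, 1.42 and 3.86 on these scales in the same order.

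**Figure D5:**
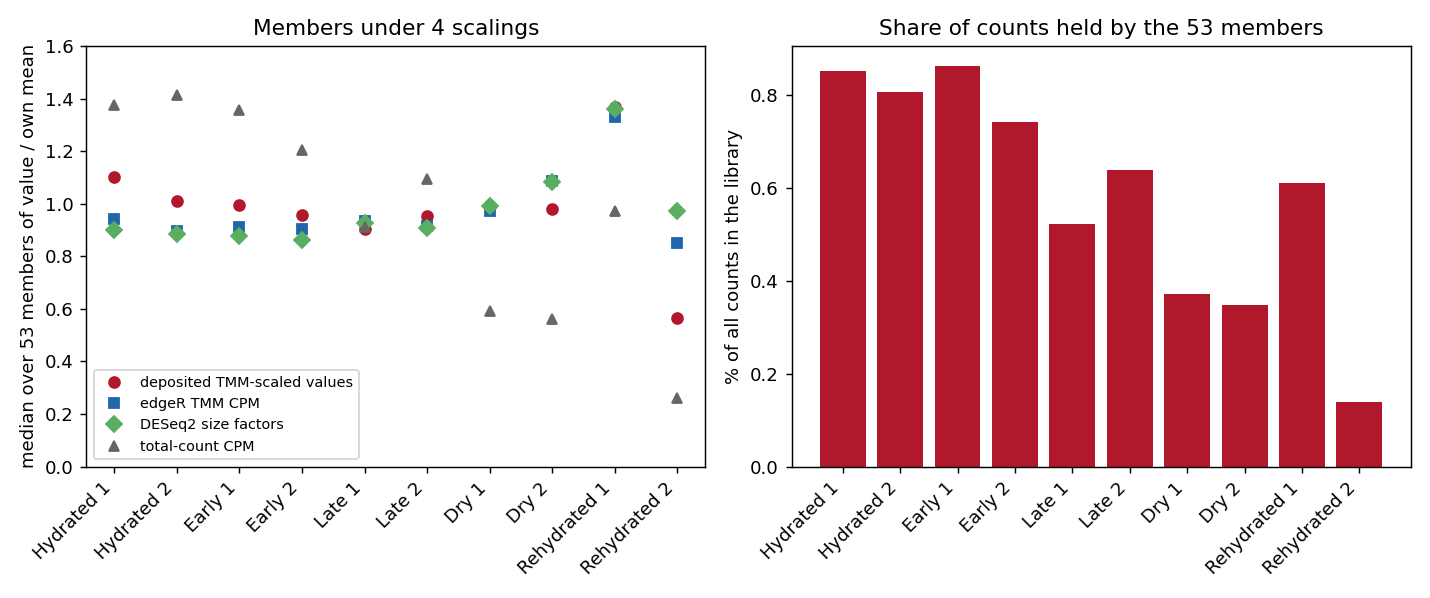
Left, median over the 53 members of the value in each library over the gene's own mean of stage means, under 4 scalings; right, percent of each library's counts held by the members. The Dry libraries are at 0.592 and 0.560 on total-count CPM and at 0.990 and 0.979 on the deposited scale, and the share of counts there is 0.372% and 0.349%.

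In the edgeR fit across all genes, with TMM scaling and all 10 libraries, no member was called at any stage. By edgeR's quasi-likelihood test with Benjamini-Hochberg adjustment over 16190 genes, in which all 53 members were tested, 0 members passed an adjusted p of 0.05 in the joint test of any stage, where 22% of all genes passed, with 2 members at an unadjusted p under 0.05. For Dry against Hydrated it was 0 members against 13.1% of all genes, with 4 members at an unadjusted p under 0.05. For Rehydrated against Hydrated it was 0 members against 5.79% of all genes, also with 4 members at an unadjusted p under 0.05. For Early desiccation against Hydrated and for Late desiccation against Hydrated, 0% of genes were called, and 0 and 1 members had an unadjusted p under 0.05. Without Rehydrated library 1, edgeR called 5 members for any stage against 32.4% of all genes, 6 in Rehydrated against 14.8%, and 1 in Dry against 19.9%. Without Rehydrated library 2 it called 2 for any stage against 27.2%, 0 in Rehydrated against 8.03%, and 1 in Dry against 20.1%. Without both it called 3 for any stage against 31.4%, and 5 higher in Dry against 15.3% of genes called higher. On total counts, 2 members were called lower in Dry, where 25.5% of genes were. The rule used the same stages, so these counts are a description and nothing is read from them.

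The fitted fold changes describe the same stages that the rule used. The median log2 fold change over members was 0.05 at Early desiccation, 0.02 at Late desiccation, 0.18 in Dry and 0.38 in Rehydrated, each against Hydrated on TMM-scaled counts. The median over all genes tested was -0.07, -0.03, -0.50 and -0.09 in the same order. The median SE of a member's fold was between 0.49 and 0.50 on the log2 scale at each stage, so a 2-fold change of a single member could go uncalled. Folds past 1 on the log2 scale occurred in 1 member at Late desiccation, 3 in Dry and 5 in Rehydrated, all of them higher than in Hydrated. On total counts the members' median was -1.30 in Dry and -1.06 in Rehydrated, against -1.96 and -1.63 for all genes.

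DESeq2, with its own filtering, called 5 members higher in Dry than in Hydrated, where 12.5% of all genes were called higher, and 3 higher in Rehydrated than in Hydrated, where 5.41% were. It called 0 members at Early desiccation, where 2.51% of genes were called, 0 at Late desiccation, where 3.42% were, and 8 in the test of any stage, where 30.2% were. TRINITY_DN214512_c3_g2 had the lowest adjusted p of these in Dry, with 23.6 and 19.0 in Dry against 18.3 and 20.6 in Hydrated on the deposited scale, where the groups overlap. Its log2 fold change was 0.99 by DESeq2 (adjusted p = 0.0106) and 0.94 (SE 0.41, adjusted p = 0.152) by edgeR. TRINITY_DN222280_c35_g16 had the lowest in Rehydrated, with 42.5 and 28.7 in Rehydrated against 14.9 and 28.4 in Hydrated, and a DESeq2 log2 fold change of 1.396 (adjusted p = 0.00668). By edgeR it was 1.25 (SE 0.51, adjusted p = 0.166).

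The stage rule was also read in the libraries of 1 number at a time, as a description. Among the 729 genes, 42 kept the 5 libraries numbered 1 within 2-fold, of which 23 were members, and 8 of these 42 (19.0%) also kept the 5 libraries numbered 2 within 2-fold, against 28 of all 729 (3.84%). In the other direction, 28 genes were even in the libraries numbered 2, of which 19 were members. The same 8 genes (28.6% of these 28) were even in those numbered 1, against 42 of 729 (5.76%). Both directions thus read a single overlap, and the comparison shares include it. The values are those the rule used and the count floor was set in all 10 libraries, so these shares are no independent support for evenness.

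Members and the other 676 genes were also set side by side on length, whole counts, read clusters and mean count, of which length enters the values the rule used and mean count is tied to its floor. Relative to the median of the 729 genes, the effective length implied by count over deposited value was a median of 1.26 among members (range 0.0756 to 3.49) and 0.983 among the others (0.0167 to 5.85). This length differed between libraries by a median of 1.33-fold for members and 1.07-fold for the others, and by under 1.2-fold in 21 members (39.6%) and in 474 of the others (70.1%). The part of this length in the members' even stage means was not tested. Counts that were not whole made up 22.3% of values in members and 31.5% in the others. A gene was alone in its read cluster in 18 members (34.0%) and in 257 of the others (38.0%). The mean count over libraries was a median of 268 in members and 673 in the others.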

How the data were processed

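RNA of 10 libraries was sequenced by the authors after removal of ribosomal RNA, per the labels' protocols, and no genome or gene annotation was used here. Per the submitters' processing notes, CASAVA 1.4, Trimmomatic 0.35, Bowtie2 2.2, RSEM 1.2.28 and DESeq2 were used; their roles and the assembly method are not given in the sources used here. Of the tables, the authors deposited expected counts per assembly gene, and a second table whose values are a score: length-normalised expression scaled by TMM, by a formula that no label states. Columns begin with Scos and were matched to titles beginning with Ecos by replicate number and time code.

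Stage means, ratios and membership came from the second table and the count floor of 30. For the fit, expected counts were rounded and analysed with edgeR 4.0.16 in R 4.3.3 (filterByExpr with a minimum count of 10 and total of 15, TMM, stage as the only factor, 5 residual degrees of freedom, adjusted p under 0.05). The SE of a fold is its absolute value over the square root of F. DESeq2 1.42.0, other scalings, filters, limits and left-out libraries were alternatives. Counting intervals cover counting error only. Values count as whole within 0.005.

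Members and lists were chosen with earlier results of these data known. The named genes are the 2 members with the lowest stage ratio, the 3 highest in mean value, the 2 with the lowest library ratio, the 2 with the widest pair, and the genes nearest the limit on either side; others were named after their values were seen. Lists by gene name could not be applied, since identifiers carry no names. No sequence of the assembly was used here.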

Additional observations from a re-analysis of the deposited data

How the results depend on the processing

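The number of members moved with the limit, the floor, the scaling and the Rehydrated libraries. Against 53 of 729 genes (7.27%), it was 13 at a limit of 1.5 and 148 at 3, of the same 729. A floor of 10 counts gave 375 of 2968 genes (12.6%), and a floor of 100 gave 3 of 197 (1.52%). With a mean count of at least 30 it was 593 of 7997 (7.42%), a share close to that of the main rule. It was 23 on total-count CPM, of which 8 were among the 53, 56 on edgeR TMM CPM (38 shared), 51 with DESeq2 size factors (31 shared), 47 with geometric means (45 shared) and 5 when single libraries replaced stage means. Leaving out 1 library gave 29 to 325 members, and 46 to 55 when it was not a Rehydrated library. Without Rehydrated library 1 it was 29 of 739 genes (3.92%, 20 of the 53 shared). Without Rehydrated library 2 it was 325 of 2568 (12.7%, 33 shared). Without both Rehydrated libraries it was 905 of 3482 (26.0%). Without Hydrated 2, Late desiccation 2 and both Rehydrated libraries it was 735 of 3593 (20.5%), and 38 of these were among the 53.

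The median stage ratio of 1.69 became 2.99 on total-count CPM, and 1.68 to 2.201 with 1 library left out. The median library ratio of 3.02 became 6.39 on total-count CPM and 2.24 to 3.02 with 1 library left out. The 5 members within 2-fold in all libraries became 5 to 12 with 1 library left out (9 without Rehydrated library 1 and 12 without library 2), 23 without both and 0 on total-count CPM, alternatives chosen after seeing the data. The Rehydrated pair ratio became 4.01 on total-count CPM. It was 3.36 among the 12 members with at least 60 counts in every library, an alternative also chosen after seeing the data. The share of 19.0% read in the libraries numbered 2 became 8.11% on total-count CPM, and with a floor of 100 counts, where 1 and 2 genes were chosen, the shares in both directions were 0%.

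Without the 100 most abundant genes in the total, the share of counts was 1.42% in Hydrated, 1.495% at Early desiccation, 1.47% at Late desiccation, 0.800% in Dry and 1.31% in Rehydrated; with 1 gene per read cluster, chosen after seeing the data, it was 0.782% in Hydrated and 0.342% in Dry. With 1 library of the stage left out it was 0.807% to 0.852% in Hydrated, 0.743% to 0.863% at Early desiccation, 0.522% to 0.639% at Late desiccation, 0.349% to 0.372% in Dry and 0.139% to 0.610% in Rehydrated.

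Members called by edgeR with 1 library left out numbered 0 to 5 for any stage, 0 to 1 in Dry and 0 to 6 in Rehydrated against Hydrated, with the 5 and the 6 without Rehydrated library 1; without both Rehydrated libraries they numbered 3 for any stage (31.4% of all genes) and 5 higher in Dry (15.3%). On total counts 2 were lower in Dry (25.5%). DESeq2 called 8 for any stage (30.2% of all genes), 5 higher in Dry (12.5%) and 3 higher in Rehydrated (5.41%). Same-numbered libraries deviated together by a correlation over 0.1 in 3 of 10 pairs of stages (-0.05 to 0.36 over all pairs). These were Hydrated with Late desiccation (0.36), Hydrated with Rehydrated (0.27) and Late desiccation with Rehydrated (0.14). The main fit did not take the numbers to pair libraries, and whether these stages share a batch was not tested. With the replicate block, 0 members were called at any stage or in any contrast. Of all 16190 genes, it called 3979 for any stage, 13 at Early desiccation, 8 at Late desiccation, 1973 in Dry and 919 in Rehydrated. The causes of these changes were not tested. The members' median count was 40 in Rehydrated library 2, of about 2031430 counts, and 184 in library 1, of about 1974810.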
